A study of Arabidopsis thaliana with 16 samples.

Results

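Regions bound by WRKY proteins at transcript ends were taken from the peak lists of 8 chromatin immunoprecipitations (ChIP) of Arabidopsis thaliana seedlings. Members were the peaks that the authors annotated as TTS, the transcription termination site, which is where a gene's transcript ends. Of 14333 peaks in the 8 lists, 2033 (14.2%) carried this annotation. Merged across lists where they shared at least 1 bp, they gave 604 regions, out of 3886 regions formed by all peaks. The peaks named 608 different genes, of which 597 were found in the RefSeq gene table.

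All plants were 12-day-old seedlings in the Col-0 background, either wild type (WT) or a wrky18 wrky40 wrky33 triple mutant. Both genotypes were sampled without treatment (0 h) and 2 h after 1 µM flg22, a flagellin peptide that starts pattern-triggered immunity, so there were 4 groups with 2 biological replicates each. One serum, raised against all WRKY proteins, was used throughout, so in the mutant it can still bind the WRKY proteins that remain. No group was kept for 2 h without flg22, and elapsed time or handling cannot be told apart from flg22. Whole seedlings were used, so more cells with a bound site and more binding per cell cannot be told apart either.

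WRKY proteins are plant transcription factors that bind a short DNA element, the W-box, and many of them act in defence. Their sites are mostly described in promoters, upstream of the transcription start site (TSS). In a compact genome such as that of Arabidopsis, the end of a gene can lie close to the promoter of its neighbour, so a peak at a transcript end can have more than 1 candidate gene. No genome sequence of the build was used here, and whether the regions hold a W-box was not analysed.

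The annotation class fixes part of where these peaks lie. Peaks of the promoter class had their centres between -1000 and 898 bp from the TSS of the nearest promoter, and no peak at a transcript end had its centre between -1000 and 100 bp. Centres, and not maxima, were the reference point: for all 2743 transcripts assigned to peaks at different positions, the TSS worked out from the peak centre was the same within 1 bp. The 604 regions were between 134 and 1841 bp wide, with a median of 495 bp. Chromosomes 1 to 5 held 171, 84, 118, 85 and 146 of them. The annotated gene was protein coding for 572 regions (94.7%).

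The gene whose end was named was also the gene of the nearest promoter for 990 peaks (48.7%). In these the peak centre lay downstream of the TSS of that gene, by a median of 1776.5 bp (quartiles 1128 and 2359 bp). Set against the gene length in the RefSeq table, whose gene models can differ from those used by the authors, 68.5% of 960 such peaks had their centre past the gene's end, and the median was 179.5 bp past it. The peaks were selected by their annotation at a transcript end, so a centre close to the gene's end follows in part from the class. For 708 peaks (34.8%) the nearest promoter belonged to another gene and the centre lay upstream of it, with a median distance of -1602 bp. For the other 335 peaks (16.5%) the nearest promoter was that of another gene and the centre lay downstream of its TSS, by a median of 1393 bp.

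**Figure D1:**
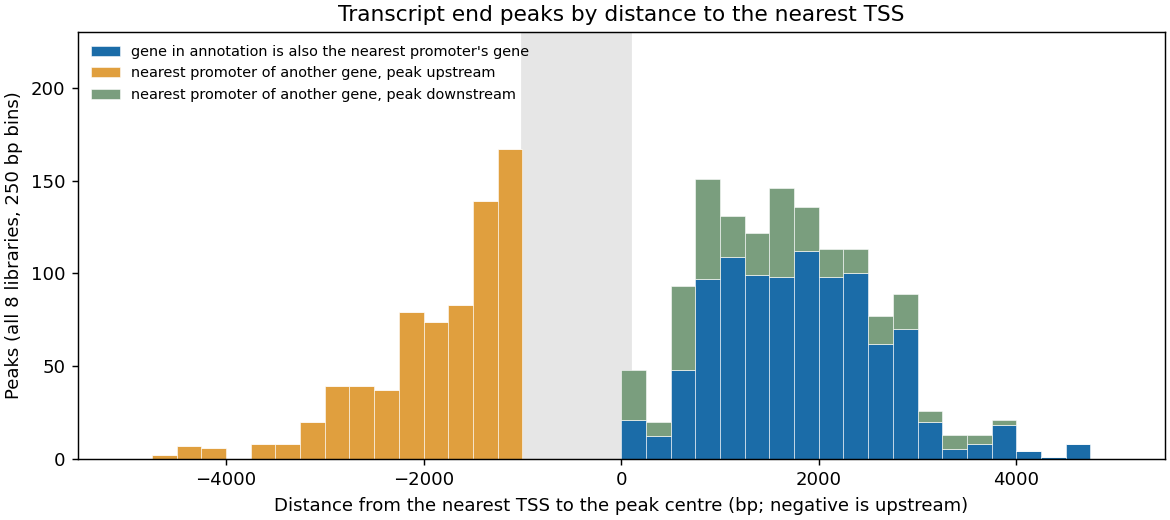
Number of transcript end peaks from all 8 libraries (y axis, 250 bp bins) by the distance from the TSS of the nearest promoter to the peak centre (x axis, bp, negative is upstream), stacked by whether the gene named in the annotation is also the gene of the nearest promoter. The shaded band from -1000 to 100 bp holds no transcript end peak (the bin from 0 holds peaks from 102 bp on), the 708 peaks to its left are all nearest to the promoter of another gene, and the 990 peaks nearest to their own gene's promoter all lie to its right.

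By region, 293 of 604 (48.5%) had the same gene in both columns, 203 lay upstream of another gene and 108 downstream of another gene's TSS. The other gene was nearly always next door, which the choice of the nearest promoter makes likely. No share over other peaks was set beside this. Among regions upstream of another gene with both genes in the protein-coding order of the reference table, 184 of 187 pairs (98.4%) were immediate neighbours, and downstream of another TSS 91 of 93 (97.8%) were. The share called in all 8 libraries was 13.3%, 13.3% and 12.0% in the 3 kinds. The median of the regions' mean score percentile, a rank explained next, was 39.3, 43.3 and 41.6.

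The score percentile used here is the rank of a peak's ChIP score within its own list, with 100 for the top peak. This score is the authors' own value for each peak, on a scale the sources do not give, so it was used only to rank peaks within a list. Transcript end peaks reached the top of several lists and had median percentiles between 49.2 and 56.9. The median of the other peaks lay between 49.0 and 50.5. The difference was positive in 6 of 8 libraries, with a mean of 2.83 ± 3.00 (SD, n = 8). Permuting the signs of the 8 differences gave an exact two-sided p of 0.0391, and 0.0781 after Benjamini-Hochberg adjustment over the 6 tests made here. With the 2 replicate numbers as blocks the exact permutation p was 0.5, the lowest that 2 blocks allow. The difference was 0.203 in lists of equal length and -0.0896 among peaks above each list's median score. Median widths per library in replicate 1 were 528.5 to 575 bp for peaks at transcript ends and 522 to 562 bp for the others. In replicate 2 they were 341 to 386 bp and 355 to 385 bp, so widths differed by replicate number in both kinds.

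The lists held 194 and 192 transcript end peaks in WT untreated (replicates 1 and 2) and 299 and 318 in WT after flg22. In the mutant they held 197 and 223 untreated and 295 and 315 after flg22. All 4 libraries after flg22 thus held more than any library untreated. The means were 306.8 ± 11.4 after flg22 and 201.5 ± 14.5 untreated (SD, n = 4 each). The exact permutation test, two-sided, gave p = 0.0286, which is the lowest value possible with 4 libraries on each side, and 0.0781 adjusted over 6 tests. In lists of equal length the difference in number was 20.25 in place of 105.25, and with only the higher-scoring peaks of each list, above its median, 52 (exact permutation p = 0.0286 for each). As all lists were longer after flg22, the share of each list was compared as well. It was 14.1% and 13.1% in WT untreated, 15.0% and 15.3% in WT after flg22, 13.6% and 13.0% in the mutant untreated and 14.4% and 14.2% in the mutant after flg22. The share was higher after flg22 in all 4 same-numbered pairs, by 0.783 to 2.24 percentage points, and the 2 times did not overlap. The means were 14.7% ± 0.516 and 13.5% ± 0.536 (SD, n = 4 each; exact permutation p = 0.0286, adjusted 0.0781). When signs were permuted over the 4 pairs of equal replicate number, both measures had an exact p of 0.125, the lowest possible for 4 pairs.

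**Figure D2:**
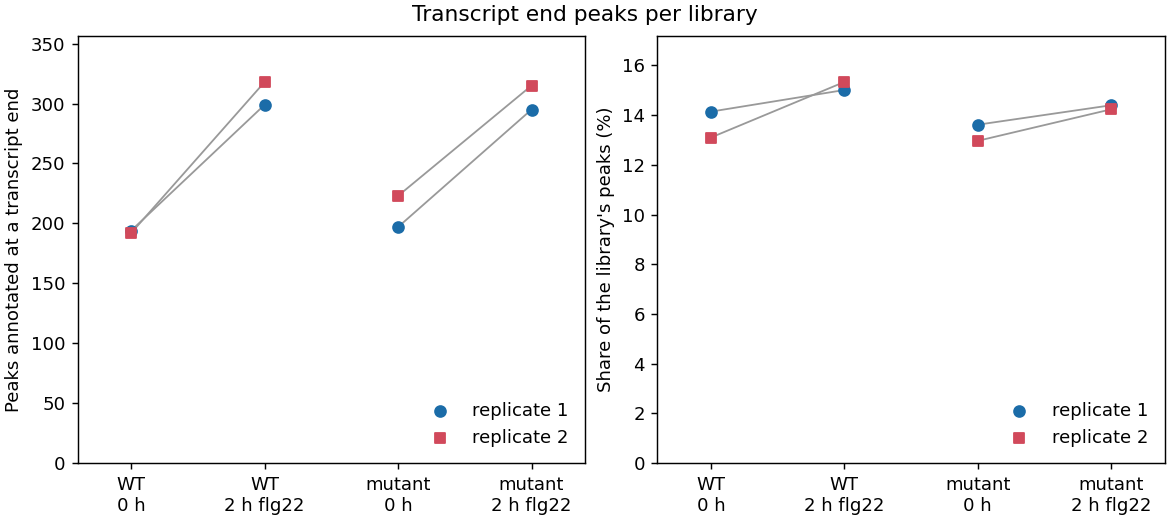
Number of peaks annotated at a transcript end (left) and their share of all peaks of the same library in percent (right), for each of the 8 libraries; points are single libraries, shapes and colours mark the replicate number, and grey lines join libraries of the same genotype and number. All 4 libraries after flg22 lie above all 4 untreated in both panels, with 295 to 318 peaks against 192 to 223.

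By genotype, the mutant libraries held 257.5 ± 56.5 transcript end peaks and the WT libraries 250.8 ± 67.1 (SD, n = 4 each; exact permutation p = 0.8). Their shares were 13.8% ± 0.652 and 14.4% ± 1.00 (exact permutation p = 0.343). Within same-numbered pairs the mutant's share was lower in 4 of 4 (exact permutation p = 0.125). The share of end peaks whose nearest promoter belonged to another gene was 51.9% ± 2.45 after flg22 and 50.2% ± 1.30 untreated (SD, n = 4 each; exact permutation p = 0.286). It was higher in all 4 pairs after treatment (exact permutation p = 0.125), by a mean of 1.76 percentage points. This difference was 4.31 points in lists of equal length (exact permutation p = 0.0286) and 4.63 among peaks above the median score (exact permutation p = 0.0571). It was 0.727 without WT after flg22 replicate 2 and 2.68 without WT after flg22 replicate 1, the ends of the range over libraries left out (exact permutation p = 0.114 to 0.571).

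A region counted as called in a library where any of its peaks overlapped it by at least 1 bp. Of the 604 regions, 79 were called in all 8 libraries (13.1%, against 12.8% of all merged regions) and 172 in a single library (28.5%, against 26.3%). Regions called everywhere had a median of their mean percentiles of 72.5, and those called once had 21.1. For regions without a transcript end peak these medians were 70.9 and 18.9. Both libraries of a group called 128 end regions in WT untreated (21.2%, against 21.6% of all merged regions), 200 in WT after flg22 (33.1% against 30.1%), 143 in the mutant untreated (23.7% against 24.3%) and 186 in the mutant after flg22 (30.8% against 29.5%). Of the regions called in either library of a group, 39.9% to 44.5% were called in both, against 37.4% to 43.1% for all merged regions. Libraries of the same replicate number shared 41.8% to 66.3% of the union of their regions, and libraries of the same group 39.9% to 44.5%.

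The class of a region could change between libraries. Annotated at a transcript end in all 8 libraries were 63 regions. In 75 regions at least 1 library held a peak of another class, which was promoter in 41 and intergenic in 26 of them, and the number of libraries with the transcript end annotation is given where such a region is described.

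Among the regions called in all 8 libraries, the highest mean percentile was at the end of AT1G12190 (chromosome 1, 4132160 to 4132735, TAIR10), an F-box gene. Its percentiles ran from 90.9 to 100 with a median of 99.0 over the 8 libraries, and the centre lay 1597 to 1651 bp downstream of the gene's own TSS. It was the top peak of the list in 3 libraries of replicate 1, 1 of WT and 2 of the mutant. AT5G46295 (chromosome 5, 18778766 to 18779817), a gene of unknown function, followed with 91.8 to 99.7 (median 98.6). AT1G29850 (chromosome 1, 10449973 to 10451263), described as a double-stranded DNA-binding-like protein, had 93.6 to 97.6 (median 96.0), the narrowest range of the 12 highest regions. AT4G20006, of unknown function, had 91.5 to 99.1, at 517 to 648 bp from its TSS, and a further peak of the promoter class fell in this region at 95 bp. All 4 stood above the percentile of 90 in every library of both genotypes.

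TH9 (AT3G08710; chromosome 3, 2646607 to 2647431), a thioredoxin of the h type, had percentiles of 78.4 to 99.4 with a median of 92.9. Its lowest values were all in replicate 1, with 88.7 and 78.4 in WT before and after flg22 and 89.1 and 86.1 in the mutant, against 96.6 to 99.4 in replicate 2. AT3G29034, of unknown function, had 72.2 to 98.4, and PP2-B14 (AT1G56250), an F-box gene also called VBF, had 80.1 to 97.8. Within groups, replicate 2 was above replicate 1 in 4 of 4 groups at TH9 and AT3G29034 and in 3 of 4 at PP2-B14, which was not tested.

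At 5 of the 12 highest regions, and at NHO1 below them, the nearest promoter taken for the region belonged to another gene. The region at the end of AT1G51690, which encodes the B alpha regulatory subunit of protein phosphatase 2A (chromosome 1, 19170874 to 19171516), lay at -2879 to -2843 bp from the TSS of DOF1 (AT1G51700), a Dof zinc finger transcription factor gene. Its percentiles were 85.1 to 99.2. That of SDR3 (AT2G47130), a short-chain dehydrogenase gene, lay at -1047 to -1011 bp from AT2G47120, described as a protein with a Rossmann-fold NAD(P)-binding domain, and had 81.6 to 98.9. These distances cover only the peaks nearest to AT2G47120, and at least 1 transcript end peak of the region was nearest to the promoter of SDR3 itself. The region at the end of AT5G05100 lay 1891 to 1940 bp downstream of the TSS of AT5G05090, described as a MYB family factor, with 80.9 to 97.6. These 3 regions were annotated at a transcript end in all 8 libraries, and SDR3 also had an exon peak in 1 of them.

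The other 3 sat on the border between the classes. The region between AT5G39010 and the receptor-like kinase gene AT5G39020 had percentiles of 74.8 to 99.3. It was annotated at a transcript end in 2 libraries and as promoter in 6, with centres from -183 to 123 bp. The region at BGLU17 (AT2G44480) carried the transcript end annotation in 1 library, at -1142 bp from PEN2 (AT2G44490), a myrosinase needed for antifungal defence, and otherwise counted as promoter of PEN2, up to -890 bp. Its percentile was 52.1 in WT after flg22 replicate 1 and 90.6 to 99.4 in the other 7 libraries. NHO1 (AT1G80460), a glycerol kinase gene required for nonhost resistance, had a region with percentiles of 64.2 to 93.9 (median 89.5) that lay upstream of AT1G80450, a VQ-motif gene, and was annotated at the end of NHO1 in 7 of 8 libraries.

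In each of the 8 libraries, a peak of the promoter class was present for a larger share of the genes with a peak at their end than of all protein-coding genes, a difference that was not tested. At 0 h it was 6.70% to 7.62% (13 to 17 genes per library) against 3.25% to 4.00%. At 2 h it was 9.32% to 12.4% (29 to 37 genes) against 4.24% to 4.95%. For the other gene whose promoter was nearest to an end peak, the share was 6.03% to 6.32% at 0 h and 9.20% to 16.7% at 2 h, near that of the gene whose end was called. The 2 times did not overlap, but the lists were longer after flg22, and their part in this was not tested. Most ends were thus called without a promoter peak of the same gene in the same list.

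Genes of 6 lists, 5 of them on defence and 1 on photosynthesis, were looked up both as the gene named in the annotation and as the nearest promoter's gene. In all, 271 of 27444 nuclear protein-coding genes (0.987%) were named at the end in a region called in both libraries of at least 1 group. Of the listed genes this held for 3 of 20 in ethylene synthesis and response, 2 of 67 WRKY genes, 1 of 33 in pattern perception and early signalling, 1 of 15 in antimicrobial metabolism and 1 of 13 stress transcription factors. None of 9 photosynthesis genes had an end region in any library. Another 140 of the 27444 genes were not named at an end but had the nearest promoter of a region called in both libraries of a group. Among listed genes this held for 3 of 15 in antimicrobial metabolism and 2 of 67 WRKY genes. It held for 1 of 20 in ethylene synthesis and response, 1 of 13 stress transcription factors and none in the pattern perception and photosynthesis lists. With so few members per list these counts are a description.

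In the ethylene list the genes were ACS6, ACS7 and ERF5. ACS6 and ACS7 encode enzymes that make the ethylene precursor, and MAP kinases stabilise ACS6 in immune signalling. The end region of ACS6 (AT4G11280; chromosome 4, 6865823 to 6866737, 2096 to 2187 bp downstream of the TSS) was called in 7 libraries. Its percentiles were 53.8 and 56.3 in WT after flg22, 53.8 in replicate 2 of WT untreated with no call in replicate 1, 2.14 and 55.3 in the mutant untreated and 23.7 and 58.7 in the mutant after flg22. Calls were thus present before and after flg22 in both genotypes, with replicate 1 lower in the mutant. That of ACS7 (AT4G26200; chromosome 4, 13277894 to 13278280) was called in the 2 libraries of WT after flg22 alone, with 53.2 and 77.7. Only 1 of the calls was annotated at the transcript end, at 2780 bp, and the other, at 3188 bp, was intergenic. Apart from this region, ACS7 had a promoter peak in 2 libraries, with percentiles up to 26.1. ERF5 (AT5G47230; chromosome 5, 19180745 to 19181712), an ethylene response factor of defence, had 69.4 and 38.4 in WT after flg22, 3.10 in replicate 1 of the mutant after flg22 and no call untreated. These values are for its end region alone. In the promoter class ERF5 had a peak in 3 libraries, with percentiles up to 44.4. ERF4 and ERF1 were each named at the end in a single library. ACO4, listed as EFE in RefSeq, encodes an ethylene-forming oxidase and was the nearest promoter of a region at the end of AT1G05020, at -1603 to -1432 bp, called in 7 libraries with percentiles of 16.5 to 78.0. ACS6 and ACO4 each had a peak of the promoter class in 6 libraries.

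Of the WRKY genes, WRKY6 (AT1G62300), a factor of senescence and defence, had an end region called in all 8 libraries (chromosome 1, 23015908 to 23016574). The percentiles were 81.8 and 77.8 in WT untreated, 63.9 and 72.9 in WT after flg22, 74.4 and 73.1 in the mutant untreated and 78.4 and 54.1 in the mutant after flg22. In WT both untreated values were above both later ones, and in the mutant the times overlapped. The nearest promoter was that of AT1G62290, a phytepsin gene, at -2761 to -2607 bp, and WRKY6 had no promoter peak in any library. WRKY11 (AT4G31550), which restrains basal resistance, had an end region 1722 to 1915 bp downstream of its TSS with percentiles of 24.9 to 76.7, called in all 4 libraries of replicate 2 and in 1 of replicate 1. It also had a promoter peak in 6 libraries. WRKY53 and WRKY51 were reached as the nearest promoter of regions at the ends of AT4G23820 and CLE21. These were called in 6 and 5 libraries, 2 and 4 of them with the transcript end annotation. In the promoter class WRKY53 had a peak in all 8 libraries and WRKY51 in 1. That of WRKY51 was a call of the region at CLE21 itself, with a percentile of 0.678.

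The other listed genes had end regions in some libraries. MEKK1 (AT4G08500), the kinase at the head of a MAP kinase cascade downstream of flg22, had percentiles of 78.4 and 43.2 in WT after flg22. It had 23.0 in replicate 1 of WT untreated, 20.3 and 63.6 in replicate 1 of the mutant before and after flg22, and no call in the other 3 libraries. Replicate 1 accounted for 4 of its 5 calls. GSTF6 (AT1G02930), a glutathione transferase of camalexin synthesis, had its end called in both mutant libraries untreated (21.6 and 35.2), in 1 mutant library after flg22 (31.1) and in 1 WT library untreated (25.1), all low in their lists, beside a promoter peak in all 8 libraries. NAC055 (AT3G15500, NAC3 in RefSeq), a jasmonate-responsive NAC factor, had an end region 2055 to 2338 bp downstream of its TSS with 47.1 and 58.0 in WT after flg22 and 54.7 in replicate 2 of the mutant after flg22. It had no call untreated and no promoter peak in any library.

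IGMT2, MYB51, PEN2 and the NAC factor gene ATAF2 had regions that were named at the end of another gene. The region upstream of IGMT2 (AT1G21120), a methyltransferase gene of indole glucosinolate metabolism, lay at the end of its relative IGMT4 (AT1G21130), at -1878 to -1837 bp from the TSS. Its percentiles were 96.7 in replicate 1 of WT after flg22, 75.4 and 28.5 in the mutant untreated and 95.6 in replicate 1 of the mutant after flg22. That of MYB51, a regulator of these compounds, was annotated at the end of AT1G18560 in 1 of the 6 libraries that called it, with percentiles of 47.4 to 97.5. The region assigned to ATAF2 was named at AT5G09210 and called in 5 libraries, 4 of them with the transcript end annotation. It had 90.8 and 23.6 in WT after flg22. In the mutant it had 23.1 in replicate 1 untreated and 71.2 and 7.07 after flg22. Peaks of the promoter class were present in all 8 libraries for IGMT2 and PEN2, in 5 for MYB51 and in 3 for ATAF2. For PEN2 and MYB51 these counts include promoter-class calls of the regions described here, so they are not separate sites. Their highest promoter percentiles, 99.4 and 97.5, are those of the regions themselves.

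**Figure D3:**
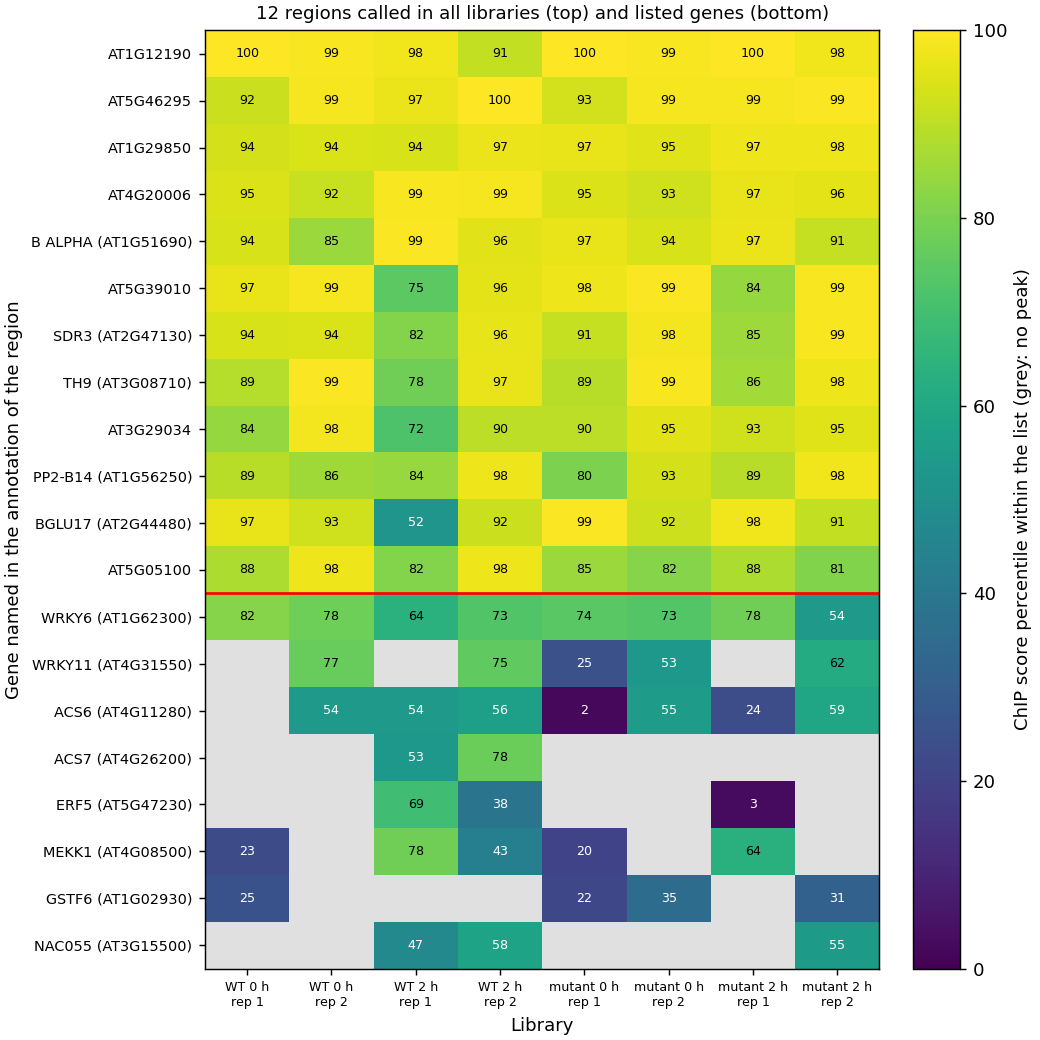
Score percentile of each region within the list of each library (columns; colour and printed number, 100 is the top peak, grey is no peak), for the 12 regions called in all 8 libraries with the highest mean percentile (above the red line) and for the listed genes whose end region was called in both libraries of a group (below it). Rows are named by the gene whose end was annotated. AT1G12190 stays between 90.9 and 100, and the end region of ACS7 has a value in the 2 WT libraries after flg22 alone.

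The next comparison was which ends were called after flg22 and not before. In WT, 45 end regions were gained, that is, called in both libraries after flg22 and neither untreated, out of 519 called in at least 1 of the 4 libraries (8.67%, against 7.89% of all merged regions). There were 12 lost by the reverse rule (2.31% against 2.11%). In the mutant 13 of 490 were gained (2.65% against 3.39%) and 3 lost (0.612% against 0.550%). All 4 shares were near the background, and a difference from other regions was not tested. With 2 libraries against 2 the smallest possible p is 0.3333, so no single region can be called different. Of these 45 ends, 11 also had calls in both mutant replicates after flg22, 26 in 1 and 8 in none, and 12 were called in at least 1 mutant library untreated. The table of WT 0 h replicate 1 lacked 136 of its region numbers, so a missing call there can be a missing row. Without that library 81 regions counted as gained, and leaving out each WT library in turn gave 72 to 141. In lists of equal length the split between gained and lost was 21 to 16 in WT, against 45 to 12 with the lists as deposited. In the mutant it was 6 to 7, against 13 to 3, so there the direction turned. Leaving out each mutant library in turn gave 35 to 96 gained and 8 to 19 lost, and in WT 19 to 34 lost.

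The strongest end gained in WT was that of PSKR1 (AT2G02220), the receptor kinase for the growth peptide phytosulfokine (chromosome 2, 583072 to 583984), next to the pseudogene AT2G02210. Its percentiles were 94.5 and 81.9 in WT after flg22, but 39.6 and 79.6 in replicate 1 of the mutant before and after flg22, so 1 mutant library already called it untreated. AT5G59740 followed with 85.6 and 79.6, at a region upstream of EXO70H7, an exocyst subunit gene, which 2 of 4 libraries annotated as intergenic. Replicate 2 of the mutant also called that region, with 3.92 untreated and 54.7 after flg22. AT1G66553, of unknown function, had 63.9 and 87.6 in WT after flg22 and was called in all 4 mutant libraries. AT5G61880, a PAM16-like gene of mitochondrial protein import, had 75.6 and 75.1 in WT after flg22, 29.2 and 49.2 in the mutant after flg22 and no call untreated. The tRNA gene AT5G46325 had 95.0 and 44.3 and was also called in 3 mutant libraries, and 2 of its 5 calls carried the transcript end annotation.

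Across both genotypes 6 end regions were called in all 4 libraries after flg22 and none untreated, named at AT1G13605, A/N-InvF, AT3G48640, AT5G46070, NAP1;3 and AT5G61880. They make up 0.993% of the 604 end regions, against 1.13% of all merged regions. AT3G48640 (chromosome 3, 18020944 to 18021444), of unknown function, had 38.6 and 94.6 in WT and 9.42 and 95.8 in the mutant after flg22, high in replicate 2 and low in replicate 1. NAP1;3 (AT5G56950), a histone chaperone gene, had 35.3 and 40.7 in WT and 71.9 and 56.6 in the mutant. The end of A/N-InvF (AT1G72000), an invertase gene, lay at a median of -1466.5 bp from AT1G72010, described as the transcription factor TCP22. Its percentiles were 53.2 and 15.7 in WT and 43.7 and 31.1 in the mutant. The reverse pattern, all 4 libraries untreated and none after flg22, held for 2 ends (0.331%, against 0.129% of all merged regions), those of AT1G12450 and AT1G78850, with percentiles of 3.79 to 41.3 and 3.92 to 39.0, each annotated at a transcript end in 2 of its 4 libraries.

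Counted without regard to replicates, 243 end regions had calls after flg22 alone (40.2%, against 35.9% of all merged regions), 32 had calls in untreated seedlings alone (5.30% against 5.92%) and 329 at both times.

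Among the ends lost in WT, AT3G25720, related to reverse transcriptases, had 53.9 and 68.3 untreated and was still called in replicate 2 of the mutant at both times. CIPK21 (AT5G57630), a kinase of calcium signalling, had 28.3 and 61.7 in WT untreated and was called in 3 mutant libraries. AT1G67635, AT5G10410 and AT1G03830 completed the highest 5, with means of 45.1 ± 2.09, 26.3 ± 10.6 and 24.8 ± 34.8 (SD, n = 2). All 5 were called in 2 to 4 mutant libraries.

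In the mutant the strongest gained end was that of AT5G60720, with 97.2 and 52.4 after flg22, upstream of the zinc finger gene AT5G60710. It had calls in all 4 WT libraries, and 5 of its 6 calls were annotated at the transcript end. NET4B (AT2G30500), an actin-binding protein gene, had 67.9 and 65.7, a call of 91.8 in 1 WT library, and lay upstream of C4H (AT2G30490), the cinnamate hydroxylase of phenylpropanoid synthesis, which makes lignin precursors. NAP1;3 and AT3G48640, given above, were also among the highest 5, as was AT5G64110, upstream of the peroxidase gene AT5G64100, with 64.2 and 50.6. In WT the end region of AT5G64110 had 56.7 and 50.5 after flg22 and 37.9 in replicate 2 untreated. The 3 lost ends were those of CYCD4;2, a D-type cyclin gene (7.12 and 53.4), AT1G78850 and AT1G12450.

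**Figure D4:**
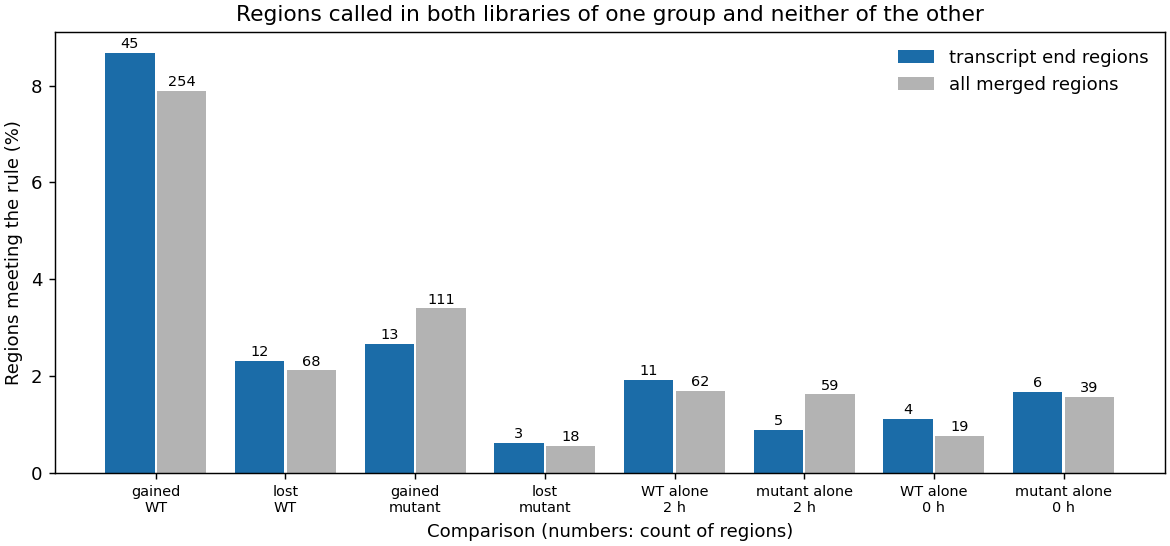
Share of regions (y axis, percent, bars from 0) that had a call in both replicates of one group and no call in the other group, for transcript end regions (blue) and all merged regions (grey), in each comparison and direction; the numbers above the bars are counts of regions. Blue and grey bars are of similar height, for example 8.67% and 7.89% for regions gained in WT.

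Between genotypes, after flg22, 11 of 572 end regions had calls in both WT replicates and none in the mutant (1.92%, against 1.70% of all merged regions), and 5 the reverse (0.874% against 1.61%). Untreated, the numbers were 4 of 361 (1.11% against 0.763%) and 6 (1.66% against 1.57%). Leaving out each library in turn raised these counts, to 27 to 65 in either direction after flg22 and to 12 to 26 in WT and 20 to 42 in the mutant untreated. The highest in WT after flg22 was ACS7, given above, and next came the end of AT1G01130, upstream of KCS1, a gene of wax fatty acid elongation, with 90.8 and 19.1. AT3G22410, a Sec14-like lipid transfer gene, had 36.0 and 58.9, AT5G39790 had 27.3 and 61.2 and AT3G23620, a ribosome production factor, had 41.9 and 35.5. None of these 5 end regions was called in a mutant library.

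Of the ends called in the mutant alone after flg22, AT1G63830 had 58.4 and 43.3, AT5G56790, next to the metallothionein gene MT1B, had 41.8 and 18.3, and AT1G03830, AT1G66490 and CYCD2;1 had means of 23.0 ± 26.2, 21.1 ± 7.05 and 14.0 ± 9.92 (SD, n = 2). At 0 h the highest in WT alone was the end of AT5G60720 (84.9 and 24.8), then GLU2, a glutamate synthase gene (24.1 and 23.6), FAD7, a plastid fatty acid desaturase gene (8.78 and 27.8), and AT5G57625 (2.15 and 8.22). In the mutant alone untreated the highest were AT2G39530 (63.6 and 66.1, a transcript end in 1 of 5 libraries), IGMT4, AT1G66553, AT5G46325 and AT1G78420. AT5G60720, GLU2, IGMT4, AT2G39530, AT1G66553 and AT5G46325 were called in at least 1 library of both genotypes after flg22.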

How the data were processed

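Peak lists of 8 ChIP-seq libraries were used, 1 list per library, and the 8 input libraries, which are controls for peak calling per the labels, were not used here. Per the labels' protocols, the DNA was linearly amplified and sequenced as single-end reads of 100 bp. Read counts behind single peaks are unknown. Per the submitters' processing notes, the tools included HOMER, SAMtools 0.1.18, Bowtie2 2.0.5, cutadapt 1.2.1 and FastQC 0.11.2, with TAIR10 as the build. Which program called the peaks is not given in those sources. Each deposited list gives the authors' ChIP score, ef score and region log q score, and only the ChIP score was used, as a percentile within its list. Coordinates and distances to the TSS are those deposited by the authors.

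Peaks annotated TTS were merged where they shared 1 bp. A region took its most frequent annotated gene and nearest gene. Names came from the RefSeq table of TAIR10.1. The gene order behind the counts of immediate neighbours and the gene lengths also came from it, and no peak coordinates did. The table gives no strand, so gene orientation was not analysed here, nor were sequences. Values per library were compared by exact permutation tests with scipy 1.17.1 (threshold 0.05, two-sided). Counting and tests were tested on simulated data. Replicate numbers pair the libraries: the design text says that all conditions were analysed for each biological replicate, and replicate differences in end region calls correlated between groups (0.267 to 0.466).

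The members and gene lists were chosen with earlier results of these data known. Named regions were the 12 highest called in all 8 libraries, the 5 highest per comparison and direction, the listed genes called in both libraries of a group, and the 6 highest nearest to another gene's promoter. Listed genes reached as the nearest promoter were added after seeing the data. Alternatives were peaks above the median score, equal numbers of peaks, only peaks annotated TTS, peaks of 150 bp, genes in place of regions, replicate pairs and leaving out each library. Leaving out regions that any library annotates otherwise, and the mean percentiles of single regions under other settings, were added after seeing the data.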

Additional observations from a re-analysis of the deposited data

How the results depend on the processing

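With replicate numbers as pairs (the replicate block), the differences of 105.25 end peaks, 1.29 percentage points of share and 2.83 percentile points kept their size, with exact permutation p of 0.125, 0.125 and 0.5, the lowest these designs allow. Without pairs their p was below 0.05 only before adjustment (0.0781 after it). The mean count within same-numbered pairs was 166.5 gained and 47 lost in WT, 122 and 28 in the mutant, 88 in WT alone and 81 in the mutant alone after flg22, and 37.5 and 56 untreated, since a single pair asks for less than both. With equal numbers of peaks per list, the difference between times was 20.25 end peaks (52 among peaks above the median score), the mutant minus WT difference in end peaks was -3.75, the other-gene share differed by 4.31 points (exact permutation p = 0.0286), the percentile difference was 0.203, WT gained 21, and the mutant gained 6 and lost 7, so its direction turned. Among peaks above the median score, the mutant's share was higher by 0.104 points, the percentile difference was -0.0896, WT gained 19 and lost 5, the mutant lost 1, and 6 were in WT alone after flg22, 0 in WT alone untreated and 3 in the mutant alone untreated. The mutant lost 1 with peaks annotated at a transcript end only, with genes in place of regions, and without regions annotated otherwise. With peaks of 150 bp, 8 were in the mutant alone after flg22. Leaving out each library in turn (the exact permutation test of 3 against 4 cannot go below p = 0.0571), the differences between times were 101.5 to 112.4 end peaks and 1.09 to 1.52 points of share, and 0.727 to 2.68 points of other-gene share. Those between genotypes were -12.8 to 29.2 end peaks and -1.02 to -0.280 points, and the percentile difference was 2.16 to 3.41 (exact permutation p = 0.0313 to 0.0781). The genotype difference in number was below 0 without either WT library before flg22 (-12.2 and -12.8) or either mutant library after it (-5.75 and -12.4). The rule then asks for 1 library on one side, and counts were larger: 72 to 141 gained and 19 to 34 lost in WT, 35 to 96 and 8 to 19 in the mutant, 27 to 65 in WT alone and 27 to 65 in the mutant alone after flg22, and 12 to 26 and 20 to 42 untreated. The mean percentiles of the 12 highest regions moved by less than their SD over libraries with equal numbers of peaks. With transcript end annotations only, AT5G39010 went from 93.2 to 99.1 (2 libraries) and BGLU17 from 89.2 to 97.7 (1 library), also by less than their SD. The other regions of these 12 carried that annotation in all 8 libraries, so their values could not move in this setting. Read depth per peak is unknown, so a missing call is not shown to be missing binding.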
